A study of Mus musculus with 54 samples.

Results

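The genes described here encode the carriers that move amino acids and monocarboxylates across cell membranes: the mouse solute carrier (SLC) families Slc1, Slc3, Slc7, Slc16, Slc36, Slc38 and Slc43. They were taken by symbol, as every probe set (the probes that an array summarises to 1 value) annotated to a single gene of these families. This gave 57 probe sets for 52 genes, of 25917 probe sets and 18759 single-symbol genes in all. Slc7 and Slc16 held 13 genes each, Slc38 held 11, Slc1 held 7, Slc36 held 4, Slc43 held 3 and Slc3 held 1. Rows that the annotation shares between a carrier and a neighbouring gene were left out, which removes Slc3a1, Slc7a7 and Slc7a10.

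The study measured RNA on arrays in 7 tissues of C57BL/6 mice aged 14 weeks. Swim mice were accustomed to water over 9 days, with sessions lengthened by 10 minutes, and then swam for 3 weeks in 2 daily sessions of 90 minutes separated by 4 hours of rest. Control mice carry that label alone. Swim and control groups held 4 arrays each in kidney, spleen, brain, visceral white fat and subcutaneous white fat. Liver had 4 swim and 3 control arrays, and skeletal muscle had 3 swim and 4 control arrays. The labels name neither the muscle or brain region nor the hour of tissue collection, and do not say whether tissues came from the same mice. The p-values therefore measure the spread between these arrays, which may be partly technical.

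Amino acids, lactate, pyruvate and ketone bodies are too polar to diffuse through membranes and need carriers. Slc1 carriers take up glutamate or small neutral amino acids with sodium, and Slc38 carriers take up glutamine and its relatives with sodium. Slc36 carriers use protons, and Slc43 carriers work by facilitated diffusion. Most Slc7 light chains exchange 1 amino acid for another and reach the surface only with an Slc3 heavy chain. Slc16 carriers, the MCT family, move lactate and related acids with protons, while some members carry aromatic amino acids or creatine. Working muscle releases lactate through the MCT4 carrier Slc16a3, and the proximal tubule of the kidney recovers filtered amino acids and lactate.

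Levels are log2(signal + 16) after quantile normalization, and a difference of 1 unit is a fold of 2. Levels of different genes are not set against each other, because probes differ in brightness. Median signals of the 54 arrays lay between 45.92 and 118.65 units, and array number limits the precision. Replicate arrays correlated at 0.97 or above in 6 tissues. In subcutaneous fat the lowest correlations were 0.886 among swim arrays and 0.852 among control arrays. There, swim array 22 held the kidney gene Umod at 15.67 and swim array 23 held the muscle gene Ckm at 11.62, against at most 5.46 and 7.52 in control arrays. B cell markers averaged 4.79 to 9.92 in swim subcutaneous fat, against 5.24 to 10.94 in control subcutaneous fat, with control array 17 the low one. The liver gene Alb varied between arrays of several other tissues and reached 12.46 in spleen control array 26. Ckm stood at 8.41 in liver control array 52, against at most 6.28 in the other livers. In bulk tissue, fewer cells of a type and less RNA per cell cannot be told apart.

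At rest, in the 27 control arrays, kidney was the tissue in which most carriers stood above all others. Of 47 carriers above the lowest 40% of signals in at least 1 tissue, 20 stood above each of the other 6 tissues by at least 1 log2 unit with limma adjusted p under 0.05, against 26.6% of all genes. Kidney held 10 of them (3.63% of all genes), brain 6 (10%), liver 2 (3.49%), spleen 1 (3.61%) and muscle 1 (3.96%). The brain count is near the share of all genes. Carriers above the low signals in 1 tissue alone entered this count only through that tissue, so their place there follows partly from the filter. These were Slc7a9, Slc7a12 and Slc7a13 in kidney and Slc1a6, Slc7a3 and Slc7a14 in brain. The same filter was applied to all genes. Another 6 were high in a pair of tissues, against 6.62% of all genes, and 21 were in neither set. The remaining 5 carriers, Slc16a8, Slc1a7, Slc36a3, Slc38a8 and Slc7a15, stayed among the low signals everywhere, between 4.54 and 5.85. Where the other tissues lay among such low signals, a gap is a lower bound.

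**Figure D1:**
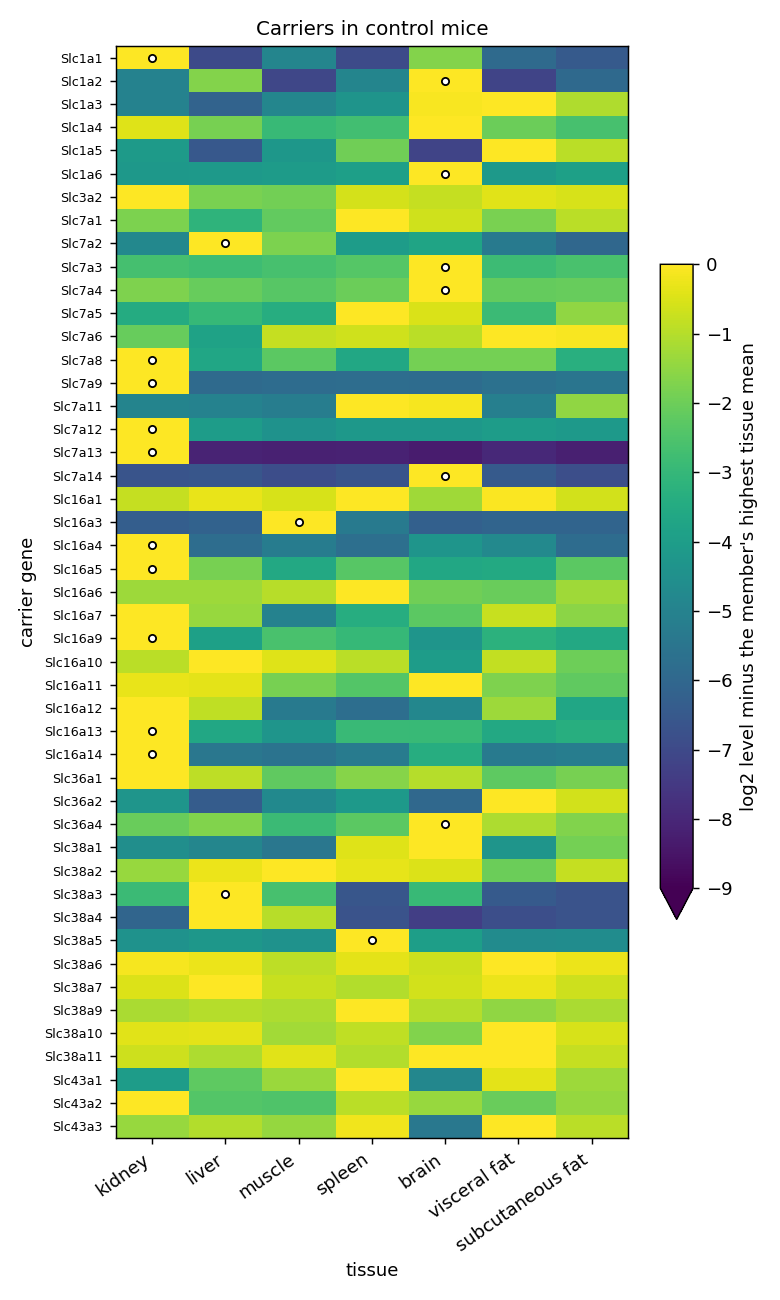
Mean log2 level of 47 carriers (rows, by family) in control mice of 7 tissues (columns), as the difference from each carrier's highest tissue. White circles mark the 20 carriers that stood above all the other tissues by at least 1 log2 unit; 10 lie in the kidney column and 6 in the brain column, and Slc7a13 lies among the low signals in every tissue but kidney.

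Several of the carriers highest in kidney are known from the tubule, although whole tissue places none of them in a cell type. Slc7a13, a cystine and aspartate carrier of the last proximal segment, averaged 12.86 ± 0.045 in kidney (SD, n = 4) and at most 4.91 ± 0.25 elsewhere. Slc7a9, the light chain of the tubular cystine carrier, stood at 10.59 ± 0.11, against at most 5.08 ± 0.63 in any other tissue. Slc7a12, a carrier of small neutral amino acids with no known heavy chain, averaged 8.75 ± 0.35 and at most 4.73 ± 0.067 elsewhere. These 3 were near the low end of the scale in all tissues but kidney.

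Other kidney-high carriers had a second tissue. Slc1a1 (EAAC1), a glutamate carrier of tubules and neurons, stood at 11.33 ± 0.073 in kidney and 9.66 ± 0.12 in brain, and next at 6.42 ± 0.16 in muscle. Slc7a8 (LAT2), which lets neutral amino acids leave the tubule cell, stood at 10.79 ± 0.078 in kidney and 8.92 ± 0.17 in visceral fat. Visceral fat, brain and muscle were close in Slc7a8, between 8.52 and 8.92. The other 5 belonged to the MCT family, Slc16a4, Slc16a5, Slc16a9, Slc16a13 and Slc16a14, whose substrates are less settled. Their gap from kidney to the next tissue was between 1.86 and 4.31 log2 units.

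Of the 6 brain carriers, 2 carry glutamate and 1 cationic amino acids. Slc1a2 (GLT-1), the main glutamate uptake carrier of astrocytes, averaged 12.03 ± 0.20 in brain and 10.38 ± 0.030 in liver, where it is known from hepatocytes around the central vein. Slc1a6 (EAAT4), the glutamate carrier of Purkinje cells, stood at 8.73 ± 0.15 in brain and at most 4.84 ± 0.20 elsewhere. Slc7a14, a neuronal relative of the cationic carriers, had 12.00 ± 0.065 in brain and at most 5.56 ± 0.11 elsewhere. Slc7a3 (a cationic carrier), Slc7a4 and Slc36a4 completed the brain set, with gaps of 2.37, 1.75 and 1.09 units to the next tissue. Slc1a3 (GLAST), the other astrocyte glutamate carrier, was not brain-specific here. It stood at 11.05 ± 0.25 in visceral fat and 10.96 ± 0.059 in brain, which did not differ beyond their spread.

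Liver, spleen and muscle each had their own carriers. Slc38a3, the glutamine carrier of hepatocytes, averaged 12.20 ± 0.071 in liver (n = 3) and 9.58 ± 0.21 in muscle, the next tissue. Slc7a2, the cationic carrier of liver, stood at 11.21 ± 0.44 there and 9.44 ± 0.19 in muscle. Slc38a4 was high in the pair liver and muscle, at 12.03 ± 0.15 and 11.07 ± 0.22, with the next tissue 5.13 units lower. Slc38a5, a glutamine carrier known from red cell precursors, stood at 9.90 ± 0.13 in spleen and at most 5.96 ± 0.22 elsewhere. Slc16a3 (MCT4) averaged 12.02 ± 0.11 in muscle and 6.73 ± 0.28 in spleen, and the other 5 tissues lay between 5.71 and 5.92.

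The remaining pairs joined fat depots, or brain with another tissue. Slc1a5 (ASCT2), a glutamine exchanger, averaged 12.31 ± 0.16 in visceral and 11.38 ± 0.73 in subcutaneous fat, and next 10.34 ± 0.058 in spleen. Slc36a2 (PAT2), a proton-coupled glycine and proline carrier, stood at 10.64 ± 0.19 and 10.02 ± 0.62 in these depots and at most 6.50 ± 0.068 elsewhere. Slc38a1, a glutamine carrier, and Slc7a11, the cystine and glutamate exchanger xCT, were high in spleen and brain, and Slc1a4 (ASCT1), an exchanger of alanine and serine, in kidney and brain. In subcutaneous fat the SD was 1.86 for Slc38a1 and 2.17 for Slc7a11, with control array 17 below the other 3. Without array 17 neither remained a spleen and brain pair, nor did Slc1a5 remain a pair of the fat depots. The Slc7a11 pair was also lost without spleen array 25, 27 or 28 or brain array 33, 34 or 36. With values as deposited or median centred, Slc1a5, Slc36a2 and Slc38a4 counted as high in 1 tissue and no longer as pairs, and with median centring Slc1a2 and Slc36a4 no longer counted as brain carriers. The smallest differences between highest and lowest tissue were those of Slc38a6, Slc38a7 and Slc38a11, at 0.89, 1.05 and 1.11 units. Slc38a6 and Slc38a7 were above the low signals in all 7 tissues. Slc38a11 was above them in 3 of 7, so its difference is a lower bound.

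Between swim and control mice, carriers changed in 5 of the 7 tissues. In kidney 13 of 39 tested carriers passed a limma adjusted p of 0.05, against 24.4% of all genes, 7 higher (10.8%) and 6 lower (13.6%). In visceral fat 8 of 33 passed (23.4% of all genes), 5 higher (11.3%) and 3 lower (12.1%). In spleen 9 of 32 passed (14%), 4 higher (7.04%) and 5 lower (6.97%), and in muscle 9 of 29 passed (11.4%), 6 higher (5.68%) and 3 lower (5.68%). In liver 2 of 29 passed (4%), 1 higher (1.84%) and 1 lower (2.16%). No carrier passed among 36 in brain (0.482% of all genes) or among 29 in subcutaneous fat (0%). At an unadjusted p under 0.05 there were 7 of 36 in brain, against 1898 of all 11621 genes, and 3 of 29 in subcutaneous fat, against 2489 of 11548. The carriers' share in visceral fat was near that of all genes. The split moved with the scaling: with arrays centred on their medians it was 2 higher and 8 lower in kidney, 4 and 9 in visceral fat and 2 and 8 in spleen. With values as deposited it was 1 and 2 in kidney, 1 and 3 in visceral fat, 1 and 18 in spleen and 2 and 5 in muscle. Of all genes, median centring called 24% in kidney, 45.4% in visceral fat and 14.4% in spleen. Deposited values called 0.362% in kidney, 5.24% in visceral fat, 45.1% in spleen and 3.46% in muscle. The median of all genes moved too, with deposited values to -0.27 in spleen, -0.23 in muscle, -0.20 in brain, -0.10 in visceral fat, 0.11 in kidney and 0.11 in subcutaneous fat, and with median centring to -0.22 in visceral fat, 0.11 in subcutaneous fat and -0.11 in muscle.

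The median carrier difference, swim minus control, was 0.19 log2 units in muscle, where that of all tested genes was -0.02. In the other tissues in which carriers passed, the carriers' median lay between -0.09 in spleen and 0.04 in liver and visceral fat. Over the 227 tests of a carrier in a tissue there were 41 calls. They fell on 30 carriers, 9 of which were called in more than 1 tissue, and 0 were called in opposite directions. The same tally was not made for all genes, so these counts do not set the carriers apart from other genes. Some of the 9 rest on weak calls. Those of Slc38a9 in kidney and Slc1a1 in muscle were lost in all or most fits that left out an array.

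**Figure D2:**
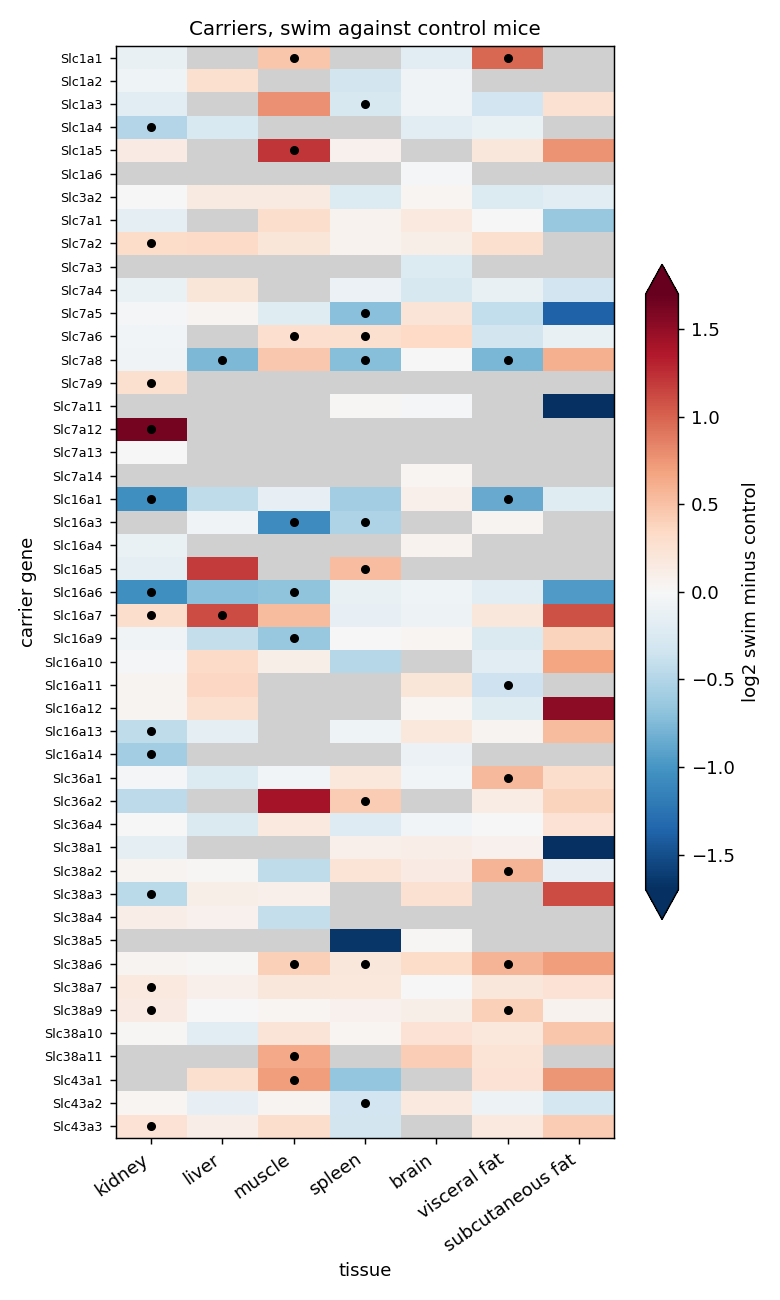
Log2 difference, swim minus control, for 47 carriers (rows, by family) in 7 tissues (columns), with black dots on the 41 calls at adjusted p under 0.05 and grey where the signal was among the lowest 40%. The kidney column carries 13 dots, the brain and subcutaneous fat columns carry none, and Slc7a12 at 1.63 in kidney is the largest called difference.

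Among the monocarboxylate carriers proper, Slc16a1, Slc16a3 and Slc16a6 were lower and Slc16a7 higher in swim mice, each in 2 tissues. Slc16a1 encodes MCT1, which carries lactate, pyruvate and ketone bodies in most cells. Its levels were 8.27, 8.32, 8.11 and 8.07 in swim kidneys, against 9.53, 9.25, 9.21 and 8.95 in control kidneys. Every swim kidney lay below every control kidney, and Slc16a1 fell by 1.04 ± 0.11 log2 units (limma adjusted p = 0.000366), a fold of 0.485. In visceral fat it had 9.35, 8.95, 9.05 and 9.37 in swim visceral fat, against 10.03, 10.02, 10.02 and 10.05 in control visceral fat. The control depots were within 0.1 unit of each other, all swim depots were lower, and Slc16a1 fell by 0.85 ± 0.10 log2 units (limma adjusted p = 0.000903).

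In the other 5 tissues Slc16a1 did not pass. Liver gave 9.35, 9.37, 9.39 and 9.33 in swim livers, against 10.06, 9.75 and 9.56 in control livers, with no overlap and a difference of -0.43 ± 0.11 (adjusted p = 0.0693). Without liver control array 52, the one with muscle transcripts, the difference was -0.54 (adjusted p = 0.0264). Slc16a1 also passed in liver in limma without the lowest 60% of signals (adjusted p = 0.0476), with trend and robust settings (0.0364) and with array weights (0.0412). In spleen it averaged 9.12 ± 0.59 in swim spleens, against 9.71 ± 0.14 in control spleens (SD, n = 4 each), with a difference of -0.59 ± 0.25 (adjusted p = 0.133). Swim spleens 31 and 32 were low at 8.69 and 8.57, and swim spleens 29 and 30 were within or near the control range. Without swim spleen 30 the difference was -0.82 (limma adjusted p = 0.027). With values as deposited it was -0.90 (limma adjusted p = 0.00286), where the median of all genes was -0.27. Muscle, brain and subcutaneous fat had overlapping arrays, at -0.13 ± 0.13 (adjusted p = 0.511), 0.09 ± 0.12 (adjusted p = 0.756) and -0.21 ± 0.34 (adjusted p = 0.693).

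Slc16a3 encodes MCT4, the lactate exporter of glycolytic fibres and cells. It had 11.30, 11.01 and 11.07 in swim muscles, against 12.24, 12.37, 12.11 and 12.05 in control muscles. No swim muscle reached the control range, and Slc16a3 fell by 1.07 ± 0.10 log2 units (limma adjusted p = 0.00469), a fold of 0.477. It was the carrier that passed in muscle whichever array was left out. In spleen Slc16a3 averaged 6.29 ± 0.18 in swim spleens, against 6.82 ± 0.28 in control spleens and fell by 0.53 ± 0.14 (adjusted p = 0.0395). The spleen call was lost in 5 of 8 fits that left out an array, with adjusted p between 0.066 and 0.083 in those 5.

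Slc16a6 encodes MCT7, known from zebrafish as the exporter of ketone bodies from liver. Kidneys gave 6.13, 6.06, 6.21 and 6.27 in swim kidneys, against 7.36, 7.18, 7.23 and 7.07 in control kidneys. These groups were a full unit apart with little spread, and Slc16a6 fell by 1.04 ± 0.069 log2 units (limma adjusted p = 4.79e-05), the smallest p among the carriers of any tissue. Muscles gave 6.35, 6.57 and 6.55 in swim muscles, against 7.32, 6.92, 7.34 and 7.13 in control muscles, and it fell by 0.69 ± 0.11 (adjusted p = 0.0152). In liver, Slc16a6 averaged 6.19 ± 0.26 in swim livers, against 6.90 ± 0.27 in control livers without overlap, a difference of -0.71 ± 0.17 (adjusted p = 0.0555). Slc16a6 passed in liver with values as deposited, median centring, offset 64 or trended robust limma, and without control array 52. The difference was negative in all 7 tissues, from -1.04 in kidney to -0.07 in brain.

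Slc16a7 encodes MCT2, a high-affinity carrier for uptake of lactate and pyruvate. Livers gave 10.32, 10.52, 10.75 and 10.32 in swim livers, against 9.12, 9.45 and 9.52 in control livers. The lowest swim liver was 0.80 units above the highest control liver, and Slc16a7 rose by 1.12 ± 0.14 log2 units (limma adjusted p = 0.00804), a fold of 2.17. In kidney, its highest tissue at rest, it averaged 11.08 ± 0.082 in swim kidneys, against 10.78 ± 0.050 in control kidneys and rose by 0.30 ± 0.053 (adjusted p = 0.00365). Visceral fat averaged 10.25 ± 0.056 in swim visceral fat, against 10.06 ± 0.052 in control visceral fat, again without overlap, at 0.19 ± 0.067 (adjusted p = 0.0679).

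**Figure D3:**
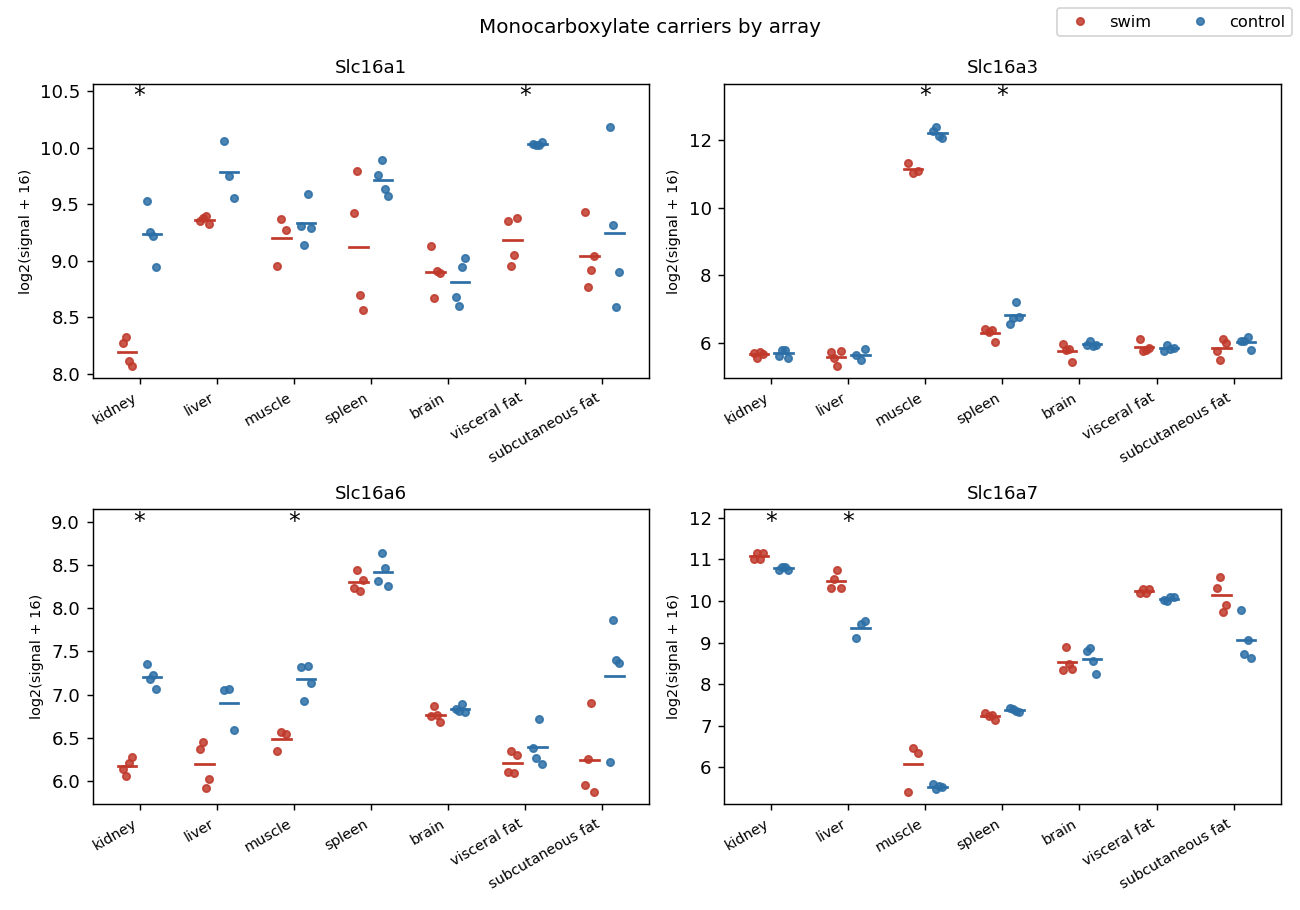
Log2(signal + 16) of Slc16a1, Slc16a3, Slc16a6 and Slc16a7 on every array of 7 tissues, swim red and left, control blue and right, with lines at group means and stars at adjusted p under 0.05. Slc16a3 lies between 11.01 and 11.30 in swim muscles, below the control muscles, and Slc16a7 lies between 10.32 and 10.75 in swim livers, above the control livers.

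Of the 9 carriers called in more than 1 tissue, 7 had a promoter entry in RefSeq (build GRCm38.p6). The 250 bases upstream of the annotated start are printed for 3 that fell, Slc16a1, Slc16a3 and Slc7a8, and for Slc38a6, which rose in 3 tissues, so that promoters of both directions can be compared. They lie at chr3:104638414-104638663, plus strand, at chr11:120948817-120949066, plus strand, at chr14:54781887-54782136, minus strand and at chr12:73286598-73286847, plus strand. Capitals mark the E-box motif CACGTG. The start site follows the last base.
Slc16a1: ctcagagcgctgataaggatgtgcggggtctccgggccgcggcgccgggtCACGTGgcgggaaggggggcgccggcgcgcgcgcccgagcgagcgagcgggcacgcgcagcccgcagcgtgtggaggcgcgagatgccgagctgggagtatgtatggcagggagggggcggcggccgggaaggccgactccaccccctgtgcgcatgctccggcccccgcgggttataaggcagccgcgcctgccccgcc
Slc16a3: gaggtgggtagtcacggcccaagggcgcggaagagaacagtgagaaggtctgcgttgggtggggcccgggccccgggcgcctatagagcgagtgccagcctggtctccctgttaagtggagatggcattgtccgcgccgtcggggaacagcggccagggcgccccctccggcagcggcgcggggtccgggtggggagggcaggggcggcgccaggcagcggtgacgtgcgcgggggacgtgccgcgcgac
Slc7a8: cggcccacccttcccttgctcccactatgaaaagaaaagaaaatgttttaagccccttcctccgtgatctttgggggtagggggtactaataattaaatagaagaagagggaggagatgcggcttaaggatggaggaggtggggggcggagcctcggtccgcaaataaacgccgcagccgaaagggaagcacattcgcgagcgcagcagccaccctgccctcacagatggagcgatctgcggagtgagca
Slc38a6: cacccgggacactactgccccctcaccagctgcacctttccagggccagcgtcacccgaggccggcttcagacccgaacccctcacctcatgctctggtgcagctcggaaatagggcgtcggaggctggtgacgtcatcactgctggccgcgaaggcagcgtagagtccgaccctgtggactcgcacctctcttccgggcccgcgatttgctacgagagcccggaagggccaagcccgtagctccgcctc
Slc16a1 holds 1 E-box, at positions -200 to -195 from the start, and 76.4% of its 250 bases are G or C, against 55.6% in Slc7a8. Of 44 promoter windows of 37 matched carriers 20.5% held the E-box, in 9 carriers, Slc16a1, Slc16a12, Slc1a6, Slc1a7, Slc36a1, Slc38a5, Slc38a7, Slc43a1 and Slc7a14, against 6.02% of 32851 mouse promoter windows. Of these 9, Slc16a1 fell in kidney and visceral fat, and 3 others rose in a tissue: Slc36a1 in visceral fat, Slc38a7 in kidney and Slc43a1 in muscle. Searched on both strands as well were the D-box TTATGNAA and the core TGATGNAA of the amino acid response element. The D-box was in 4.55% of the 44 carrier windows (2 of 37 carriers, Slc16a12 and Slc1a2), against 3.07% of all windows. The core was in 2.27% of the carrier windows (1 of 37 carriers, Slc7a11), against 3.45% of all windows. A match describes the letters of the window and is no evidence of binding.

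Several MCT relatives with less settled substrates also changed. In kidney Slc16a13 had 9.25, 9.22, 9.34 and 9.23 in swim kidneys, against 9.64, 9.82, 9.70 and 9.62 in control kidneys. Its groups did not overlap, and it fell by 0.44 ± 0.055 (adjusted p = 0.000722). Slc16a14 fell by 0.59 ± 0.15 (adjusted p = 0.0182) there, although 1 swim kidney, at 9.90, exceeded the lowest control kidney, at 9.83. The kidney-high Slc16a4 and Slc16a9 differed by -0.11 ± 0.080 and -0.06 ± 0.074 and did not pass.

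Slc16a9 fell by 0.65 ± 0.14 (adjusted p = 0.031) in muscle, and Slc16a11 fell by 0.36 ± 0.11 (adjusted p = 0.0409) in visceral fat. The Slc16a9 call was lost in 4 of 7 fits that left out an array. That of Slc16a11 was lost in 3 of the 6 such fits that tested it. It was also lost with median centring, offset 64, no filter or trended robust limma. Slc16a5 had 6.43, 6.46, 6.79 and 6.41 in swim spleens, against 6.09, 6.01, 5.93 and 5.99 in control spleens. Swim spleen 31 was the high one, the groups did not overlap, and Slc16a5 rose by 0.52 ± 0.089 (adjusted p = 0.0113). In liver Slc16a5 averaged 7.32 ± 0.60 in swim livers, against 6.13 ± 0.37 in control livers, a difference of 1.19 ± 0.31 (adjusted p = 0.0758) that was singled out after its values were seen. No call was made in any tissue for Slc16a10, a carrier of aromatic amino acids, or for Slc16a12, a creatine carrier.

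The heavy chain Slc3a2 (CD98), which most Slc7 light chains need, passed in none of the 7 tissues, with differences between -0.23 and 0.16. Under other settings it did pass in visceral fat: with median centring, offset 64, without the lowest 60% of signals, with trended robust limma and with array weights. It also passed there without swim array 5, and in spleen with values as deposited or without swim array 30. Several Slc7 carriers did pass. The largest called difference of any carrier was that of Slc7a12 in kidney. It had 10.13, 11.21, 10.12 and 10.35 in swim kidneys, against 8.81, 8.81, 9.28 and 8.40 in control kidneys. All swim kidneys were above all control kidneys, swim kidney 14 being the highest, and Slc7a12 rose by 1.63 ± 0.24 log2 units (limma adjusted p = 0.00161), a fold of 3.09. In a single fit of all 54 arrays, which pools the spread of all tissues, its adjusted p was 0.13. The other kidney-restricted light chains moved little. Slc7a13 averaged 12.96 ± 0.088 in swim kidneys, against 12.96 ± 0.061 in control kidneys, with -0.00 ± 0.056 (adjusted p = 0.983), and Slc7a9 rose by 0.28 ± 0.063 (adjusted p = 0.0114).

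Outside kidney, Slc7a12 was among the low signals of every tissue, between 4.25 and 4.86 on all arrays but 1. That array was subcutaneous fat swim array 22, at 10.31, the array that held Umod. Slc7a13 stood at 12.32 on the same array and between 4.54 and 5.14 on the other 7 of that tissue.

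Slc7a12 was set beside genes that differ between the sexes in mouse kidney, from lists drawn up for that purpose. Of 10 male-biased or androgen-dependent genes in kidney, 3 fell and 0 rose (median -0.23, against 0.00 for all genes). Gusb (a lysosomal glucuronidase) fell by 0.59 ± 0.093, Odc1 (polyamine synthesis) fell by 0.56 ± 0.15 and the fatty acid hydroxylase Cyp4a12a fell by 0.65 ± 0.19. The other 7 differed by -0.74 ± 0.27 (Slco1a1), -0.29 ± 0.14 (Cyp4a12b), -0.16 ± 0.069 (Cyp4b1), -0.15 ± 0.11 (Cyp2j13), -0.07 ± 0.087 (Cyp7b1), 0.01 ± 0.043 (Cyp2e1) and 0.03 ± 0.044 (Kap). Of 2 female-biased genes, Cyp4a14 rose by 1.45 ± 0.22 and Slc22a7 fell by 0.65 ± 0.14. The Y-linked Eif2s3y rose by 0.24 ± 0.071, and Kdm5d and Uty differed by 0.13 ± 0.061 and 0.04 ± 0.055. Markers of the proximal tubule's last segment averaged 11.46 to 11.66 in swim kidneys, against 11.52 to 11.81 in control kidneys. Their part in the Slc7a12 difference was not tested.

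Slc7a8 (LAT2) fell in 3 tissues and in none of them is it at its highest. Its levels were 6.20, 6.30, 6.12 and 5.77 in swim livers, against 6.93, 6.96 and 6.71 in control livers, and it fell by 0.77 ± 0.13 log2 units (limma adjusted p = 0.0207). In visceral fat it averaged 8.25 ± 0.35 in swim visceral fat, against 9.03 ± 0.17 in control visceral fat and fell by 0.77 ± 0.16 (adjusted p = 0.00994), and in spleen 6.54 ± 0.38 in swim spleens, against 7.26 ± 0.13 in control spleens, where it fell by 0.72 ± 0.17 (adjusted p = 0.0281). In kidney, where it is highest, Slc7a8 had a difference of -0.05 ± 0.053 (adjusted p = 0.49), and in muscle one of 0.46 ± 0.14 (adjusted p = 0.0702). The liver call was lost without control array 49 or 50 or swim array 53, with adjusted p between 0.051 and 0.077. The spleen call was lost in 5 of 8 fits that left out an array.

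Slc7a6 (y+LAT2), which exchanges cationic for neutral amino acids, passed in spleen and muscle. Spleens gave 8.20, 8.20, 8.34 and 8.30 in swim spleens, against 8.05, 7.86, 8.08 and 7.99 in control spleens, and it rose by 0.27 ± 0.063 log2 units (limma adjusted p = 0.0281). In muscle it averaged 7.81 ± 0.049 in swim muscles, against 7.53 ± 0.098 in control muscles and rose by 0.28 ± 0.070 (adjusted p = 0.0425), a call lost in 6 of 7 fits that left out an array. In brain it had 8.21, 8.33, 8.26 and 8.33 in swim brains, against 7.84, 7.97, 7.96 and 7.99 in control brains, without overlap, and the smallest p of the carriers there, at 0.34 ± 0.057 (adjusted p = 0.0501). In visceral fat the difference was the other way, -0.31 ± 0.11 (adjusted p = 0.0585), and it passed there with median centring, without the lowest 60% of signals, with trended robust limma and with array weights. The spleen difference was -0.040 with signals as deposited, and the spleen call was lost in 5 of 8 fits that left out an array.

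Slc7a5 (LAT1), the leucine exchanger of dividing and activated cells, fell by 0.71 ± 0.17 (adjusted p = 0.0284) in spleen, where it averaged 8.96 ± 0.39 in swim spleens, against 9.67 ± 0.095 in control spleens. Swim spleens 31 and 32 were the lowest, at 8.65 and 8.64, and the call was lost in 6 of 8 fits that left out an array. Slc7a2 rose by 0.31 ± 0.076 (adjusted p = 0.016) in kidney, and Slc7a1, the widespread cationic carrier, passed in none of 6 tissues. Slc7a11 was not called in spleen or brain, where it is high.

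**Figure D4:**
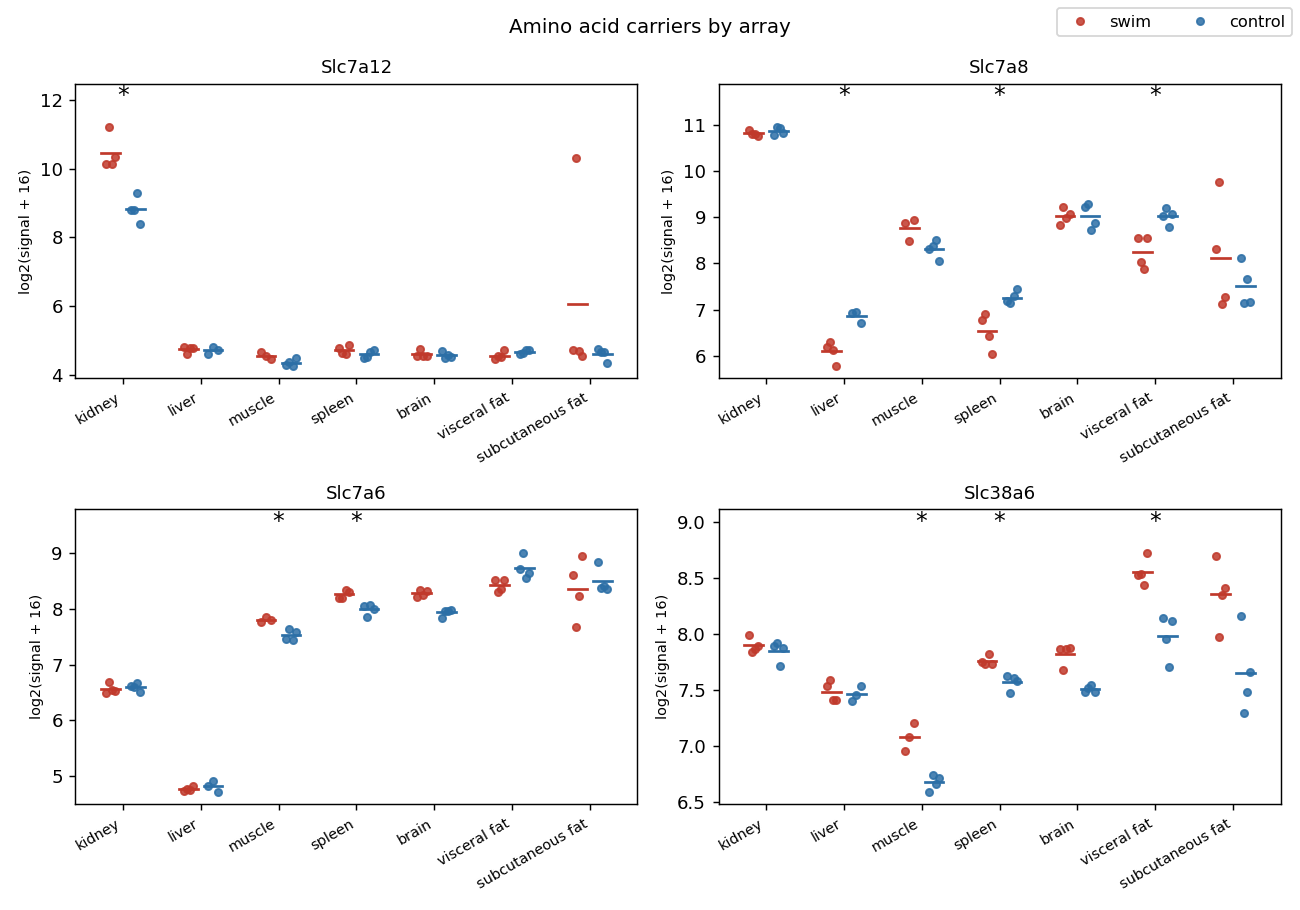
Log2(signal + 16) of Slc7a12, Slc7a8, Slc7a6 and Slc38a6 on every array of 7 tissues, swim red and left, control blue and right, with lines at group means and stars at adjusted p under 0.05. Slc7a12 lies between 10.12 and 11.21 in swim kidneys and near 4.5 on the arrays of other tissues, except subcutaneous fat swim array 22.

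Over 53 tests of the glutamine and neutral amino acid carriers of Slc38, 8 rises and 1 fall were called. Slc38a6 gave 3 of these rises and Slc38a9 gave 2. Slc16 had 3 rises and 10 falls over 60 tests, and Slc7 had 5 and 4 over 46. No share of all genes pooled over tissues was computed, so the only shares to read these against are those given above for each tissue. With median centring the rises of Slc38a7 and Slc38a9 in kidney, of Slc38a9 in visceral fat and of Slc38a6 in spleen were lost. Slc38a6 (SNAT6), an orphan, rose in 3 tissues. It had 8.53, 8.54, 8.43 and 8.72 in swim visceral fat, against 8.15, 7.95, 7.70 and 8.12 in control visceral fat. Muscle gave 6.95, 7.08 and 7.21 in swim muscles, against 6.59, 6.74, 6.66 and 6.72 in control muscles. Neither pair of groups overlapped. It rose by 0.58 ± 0.11 log2 units (limma adjusted p = 0.00671) in visceral fat and rose by 0.41 ± 0.076 (adjusted p = 0.0209) in muscle. In spleen Slc38a6 rose by 0.19 ± 0.052 (adjusted p = 0.0442). The spleen call was lost whichever array was left out, and the muscle call was lost in 4 of 7 such fits. Brains gave 7.86, 7.68, 7.86 and 7.87 in swim brains, against 7.48, 7.52, 7.54 and 7.48 in control brains, again without overlap, and a difference of 0.31 ± 0.060 (adjusted p = 0.0646). The difference was above 0 in all 7 tissues, between 0.02 and 0.71.

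Slc38a2 (SNAT2), a sodium-coupled carrier that cells raise when amino acids are short, had 9.66, 9.67, 9.93 and 9.83 in swim visceral fat, against 9.31, 9.17, 9.27 and 9.06 in control visceral fat. All swim depots were higher, and Slc38a2 rose by 0.57 ± 0.090 log2 units (limma adjusted p = 0.00295). Slc38a9, the arginine sensor of the lysosome, rose by 0.41 ± 0.081 (adjusted p = 0.00827) in visceral fat and rose by 0.14 ± 0.043 (adjusted p = 0.0419) in kidney. Its second probe set gave 0.57 in visceral fat and 0.14 in kidney. The kidney call of Slc38a9 was lost whichever array was left out. Endothelium markers averaged 9.39 to 9.51 in swim visceral fat, against 9.11 to 9.23 in control visceral fat, where 4 of 6 rose and 1 fell, and 2 of 6 tested macrophage markers rose (8.28 to 8.93 in swim visceral fat, against 7.77 to 8.63 in control visceral fat). Their part in the visceral fat differences of carriers was not tested. Slc38a7, a glutamine exporter of the lysosome, rose by 0.16 ± 0.053 (adjusted p = 0.048), and Slc38a3 fell by 0.45 ± 0.11 (adjusted p = 0.0143) in kidney. The Slc38a7 call, too, was lost whichever array was left out.

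Slc38a11 (SNAT11), an orphan, rose by 0.65 ± 0.15 (adjusted p = 0.0356) in muscle, and brains gave 6.67, 6.66, 6.51 and 6.40 in swim brains, against 5.98, 6.09, 6.28 and 6.21 in control brains, a difference of 0.42 ± 0.089 (adjusted p = 0.0824) without overlap. The muscle call of Slc38a11 was lost in 4 of the 5 fits that left out an array and still tested it. It was also lost with values as deposited, with no filter and in the single fit of all 54 arrays. The liver carriers Slc38a3 and Slc38a4 differed in liver by 0.10 ± 0.064 (adjusted p = 0.402) and 0.07 ± 0.085 (adjusted p = 0.692). Slc38a5 in spleen was singled out after its values were seen. It had 9.01, 9.55, 6.73 and 6.81 in swim spleens, against 9.56, 9.84, 9.63 and 9.67 in control spleens, a difference of -1.65 ± 0.60 (adjusted p = 0.0922). Swim spleens 31 and 32 were far below all control spleens, and swim spleens 29 and 30 were close to or just below them.

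Red cell precursor markers, 5 measured genes, averaged 8.75 and 8.99 in swim spleens 31 and 32 and 9.94 and 10.47 in swim spleens 29 and 30, against 10.12 to 10.56 in control spleens. None of the 5 passed. Neutrophil markers averaged 5.54 to 6.81 in swim spleens, against 8.50 to 9.44 in control spleens, and 6 of 6 fell. Macrophage markers averaged 8.56 to 9.10 in swim spleens, against 9.28 to 9.40 in control spleens, and 6 of 7 fell. Endothelium markers averaged 7.82 to 8.11 in swim spleens, against 8.19 to 8.35 in control spleens, and 3 of 6 fell. T cell markers averaged 9.98 to 10.29 in swim spleens, against 9.82 to 9.92 in control spleens, and 2 of 4 rose. B cell markers averaged 11.09 to 11.32 in swim spleens, against 11.04 to 11.23 in control spleens, and 0 of 5 passed. The part of these cell types in the spleen differences of Slc16a3, Slc7a5, Slc7a8 and Slc38a5 was not tested.

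Of the Slc1 carriers, Slc1a5 (ASCT2) had the largest called difference. It had 8.39, 9.44 and 9.21 in swim muscles, against 8.12, 7.29, 7.87 and 7.92 in control muscles. Swim muscles 46 and 47 were well above the controls, swim muscle 45 was close to them, and Slc1a5 rose by 1.21 ± 0.27 log2 units (limma adjusted p = 0.0327). Slc36a2, which like Slc1a5 is highest in fat, had 6.16, 7.55 and 7.61 in swim muscles, against 6.29, 4.57, 6.06 and 5.83 in control muscles, with overlap and a difference of 1.42 ± 0.48 (adjusted p = 0.0893). The 5 measured adipocyte markers averaged 9.19 and 8.88 on swim muscle arrays 46 and 47 and 7.75 on swim array 45, against 6.70 to 8.36 on control arrays. None of the 4 tested passed in muscle. Adipoq stood between 8.08 and 9.63 in swim muscles, against 6.60 to 8.60 in control muscles. The call was lost in 6 of 7 fits that left out an array, and without swim array 45 the difference was 1.53. The part of adipocyte RNA in it was not tested.

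**Figure D5:**
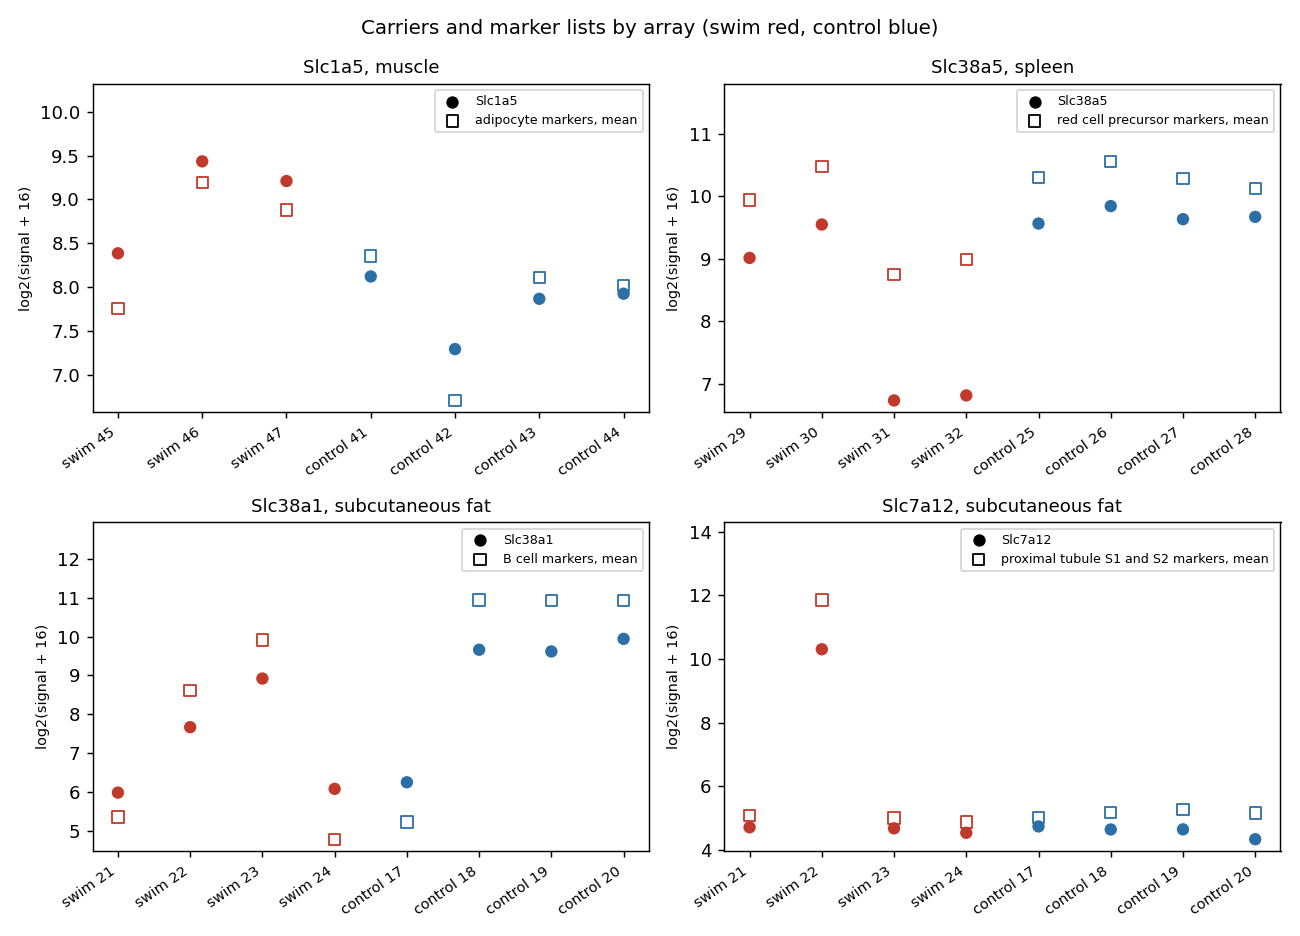
Log2(signal + 16) of a carrier (filled circles) and the mean of a marker list (open squares) on each array, swim left in red and control right in blue, for Slc1a5 with adipocyte markers in muscle, Slc38a5 with red cell precursor markers in spleen, and Slc38a1 with B cell markers and Slc7a12 with proximal tubule markers in subcutaneous fat. Slc38a5 is low on swim spleens 31 and 32, at 6.73 and 6.81, where the precursor markers are also at their lowest.

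Slc1a1 rose by 0.97 ± 0.24 (adjusted p = 0.0169) in visceral fat, a tissue where its level is low, at 6.36 ± 0.36 in swim visceral fat, against 5.38 ± 0.47 in control visceral fat. Its second probe set, among the low signals there, gave 0.22, and the single limma fit of all 54 arrays gave an adjusted p of 0.14. In muscle Slc1a1 rose by 0.47 ± 0.12 (adjusted p = 0.0442), but its second probe set gave -0.02 there. Of the fits that left out a muscle array, only that without swim array 45 kept this call. Slc1a4 (ASCT1) fell by 0.50 ± 0.098 (adjusted p = 0.00587) in kidney, where it averaged 7.36 ± 0.15 in swim kidneys, against 7.86 ± 0.18 in control kidneys. Slc1a3 fell by 0.27 ± 0.065 (adjusted p = 0.0286) in spleen, a call lost in 6 of 8 fits that left out an array. The brain's own glutamate carriers did not pass in brain, with -0.06 ± 0.12 (adjusted p = 0.842) for Slc1a2, -0.06 ± 0.15 (adjusted p = 0.866) for Slc1a3 and -0.03 ± 0.34 (adjusted p = 0.98) for Slc1a6.

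The proton-coupled carriers rose where they were called. Slc36a1 (PAT1), found on lysosomes, had 8.18, 7.91, 7.90 and 8.18 in swim visceral fat, against 7.40, 7.51, 7.45 and 7.63 in control visceral fat. Swim depots were all higher, and Slc36a1 rose by 0.55 ± 0.094 log2 units (limma adjusted p = 0.00434). Slc36a2 had 6.90, 6.92, 7.32 and 6.93 in swim spleens, against 6.69, 6.53, 6.55 and 6.59 in control spleens, with swim spleen 31 the highest, and it rose by 0.43 ± 0.096 (adjusted p = 0.0242). Leaving out any of the control spleens ended that call. Slc36a4 passed in none of 7 tissues.

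The Slc43 carriers each passed once. Slc43a1 (LAT3), a facilitated carrier of branched-chain amino acids, had 8.51, 8.56 and 8.46 in swim muscles, against 8.08, 7.96, 7.50 and 7.68 in control muscles. Swim muscles were tightly grouped above the controls, and Slc43a1 rose by 0.70 ± 0.13 log2 units (limma adjusted p = 0.0219). Slc43a2 (LAT4), of similar function, had 8.14, 8.07, 8.22 and 7.95 in swim spleens, against 8.49, 8.34, 8.36 and 8.52 in control spleens and fell by 0.33 ± 0.071 (adjusted p = 0.0215). The Slc43a1 call was lost in 3 of 7 fits that left out an array, and the Slc43a2 call in 2 of 8. Slc43a3, a carrier of purine bases, averaged 9.74 ± 0.099 in swim kidneys, against 9.49 ± 0.044 in control kidneys and rose by 0.24 ± 0.057 (adjusted p = 0.0122).

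Some of these counts rested on few arrays, and the share of all genes called moved with the arrays too. Leaving out swim muscle 46 left 1 carrier called in muscle, Slc16a3, with 0.608% of all genes called. There were 2 without swim muscle 47 (4.23% of all genes), 3 without control muscle 41 (3.91%) or 43 (4.54%) and 4 without control muscle 44 (4.37%). Leaving out control spleen 28 left 1 in spleen, Slc16a5 (7.53% of all genes), and there were 2 without control spleen 25 (5.04%). There were 3 without control spleen 26 (6.85%) or 27 (6.19%) or swim spleen 31 (6.47%), and 5 without swim spleen 32 (8.36%). In liver 1 passed without control 49 (1.21% of all genes) or 50 (1.53%) or swim 53 (1.46%), and 4 without control 52 (4.71%). Of the 34 named calls, 17 held whichever array was left out: 6 in visceral fat, 8 in kidney, and Slc16a7 in liver, Slc16a5 in spleen and Slc16a3 in muscle. In kidney 11 or 12 carriers passed whichever array was left out (18.3% to 21.3% of all genes). But 3 passed with signals as deposited (0.362%) and 3 in a single fit of all 54 arrays (2.22%). Slc38a7 and Slc38a9 passed in none of the fits that left out a kidney array. The kidney carriers Slc38a3, Slc7a2, Slc16a14, Slc38a9 and Slc38a7, Slc1a1 in muscle and Slc38a6 in spleen were beyond the 8 of smallest p per tissue and were named after their values were seen. In kidney and liver, macrophage markers fell too, 6 of 7 in kidney (6.72 to 6.94 in swim kidneys, against 7.33 to 7.47 in control kidneys) and 6 of 6 in liver (7.41 to 7.90 in swim livers, against 8.23 to 8.40 in control livers). In muscle 3 of 6 tested fell (6.13 to 6.24 in swim muscles, against 6.32 to 6.82 in control muscles). Their part was not tested.

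In subcutaneous fat 0 carriers passed in limma, and the carriers of smallest p are given. Slc16a7 had 10.31, 10.58, 9.74 and 9.91 in swim subcutaneous fat, against 9.78, 8.73, 9.07 and 8.63 in control subcutaneous fat, a difference of 1.09 ± 0.30 (adjusted p = 0.203). Slc38a6 had 8.70, 7.97, 8.34 and 8.41 in swim subcutaneous fat, against 8.16, 7.30, 7.48 and 7.67 in control subcutaneous fat, a difference of 0.71 ± 0.23 (adjusted p = 0.206). Slc16a6 had 5.96, 6.25, 6.90 and 5.87 in swim subcutaneous fat, against 6.22, 7.86, 7.40 and 7.37 in control subcutaneous fat, a difference of -0.97 ± 0.38 (adjusted p = 0.216). In each, control array 17 lay among the swim arrays, and the other 3 control arrays did not overlap with them.

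Leaving out control array 17 gave 11 called carriers in subcutaneous fat, with 34.5% of all genes called. Slc16a7 then differed by 1.31 (adjusted p = 0.0146), Slc38a6 by 0.86 (adjusted p = 0.0186) and Slc16a6 by -1.28 (adjusted p = 0.0171). That fit sets 3 control arrays rich in lymph node transcripts against swim arrays of which 21 and 24 hold none at a comparable level. Slc38a1, high in spleen and brain at rest, had 5.99, 7.67, 8.92 and 6.09 in swim subcutaneous fat, against 6.26, 9.66, 9.62 and 9.94 in control subcutaneous fat, and B cell markers were high and low on the same arrays. The part of lymph node RNA was not tested. Slc38a1 was singled out after its values were seen.

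Whether the swim effect of a carrier differed between tissues was tested in a fit of all 54 arrays with a weight per tissue. Of 47 carriers, 27 passed the F test, against 40.7% of all genes, and 28 passed when each tissue kept its own spread (36.3%). The smallest p values belonged to Slc16a6 (adjusted p = 6.01e-06), Slc16a3 (7.47e-06), Slc16a7 (4.57e-05), Slc7a12 (7.00e-05), Slc7a6 (8.43e-05), Slc36a1 (0.000113), Slc7a8 (0.000116) and Slc1a5 (0.000191). Of the 47, 6 were above the low signals in 1 tissue, and 2 of these passed, Slc7a12 among them. For Slc7a12 the test sets kidney against tissues at the low end of the scale, where no change was measurable, and it says nothing of a differing effect there. Of the other 41, 25 passed. Slc1a5 differed in muscle from kidney by 1.07 ± 0.20 in its effect. Slc16a7 differed in liver from kidney by 0.82 ± 0.18, and Slc36a1 in visceral fat from kidney by 0.57 ± 0.11. With signals as deposited 12 of 47 passed, against 9.43% of all genes.

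Genes that work with the carriers were followed as lists. Their counts stand against the shares of all genes called, which were 10.8% higher and 13.6% lower in kidney, 11.3% and 12.1% in visceral fat, 5.68% and 5.68% in muscle and 7.04% and 6.97% in spleen. In lists this short a share rests on 1 or 2 genes. Of the lactate handling list, which holds pyruvate and lactate enzymes and MCT partners, 0 of 7 tested rose and 2 fell in visceral fat, 0 rose and 2 of 6 fell in muscle, 1 of 9 rose in kidney and 1 of 5 in spleen. The medians were -0.19, -0.10, -0.08 and -0.03, against -0.03, -0.02, 0.00 and 0.00 for all genes. Emb, the partner protein of MCT2, fell by 0.66 ± 0.20 in visceral fat and rose by 0.41 ± 0.11 in spleen. Pdk4, which inhibits pyruvate dehydrogenase, fell by 0.95 ± 0.20 in muscle and fell by 0.48 ± 0.14 in visceral fat. Ldhd (D-lactate dehydrogenase) fell by 0.47 ± 0.11 in muscle. Slc5a12, a sodium-coupled lactate carrier of the tubule, rose by 0.36 ± 0.043 in kidney.

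Targets of ATF4, the transcription factor of amino acid shortage, fell for 5 of 13 and rose for 1 in kidney, with a median of -0.20. They included Psat1 (serine synthesis), which fell by 0.67 ± 0.065, Asns (asparagine synthesis), which fell by 0.46 ± 0.055, and Shmt2, which fell by 0.40 ± 0.063. In visceral fat 3 of 15 fell and 1 rose (median -0.00), with Mthfd2 of mitochondrial folate metabolism down by 0.94. In muscle 2 of 14 rose and 2 fell (median -0.04), and Asns rose by 0.96 ± 0.23. In spleen 2 of 13 fell, in brain 1 of 13 fell, and in liver 0 of 11 passed in limma.

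Of the branched-chain amino acid catabolism list, 4 of 12 rose and 0 fell in muscle, with a median of 0.09. Bcat2, the mitochondrial transaminase, rose by 0.49 ± 0.054, and Bckdhb of the dehydrogenase complex rose by 0.56 ± 0.096. In visceral fat 1 of 13 rose and 3 fell (median -0.20), in kidney 2 of 13 fell and in spleen 1 of 12 rose and 2 fell. Of genes by which mTORC1 senses amino acids, 1 of 25 rose and 5 fell in kidney (median -0.02), led by Lamtor1, which fell by 0.35 ± 0.049. At most 2 passed in any other tissue.

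Of amino acid carriers of other families, 2 of 18 rose and 3 fell in kidney (median -0.01). The mitochondrial glutamate carrier Slc25a22 fell by 0.62 ± 0.057 and the peptide carrier Slc15a2 rose by 0.59 ± 0.093. In visceral fat the taurine carrier Slc6a6 rose by 1.28 ± 0.14, as 1 of 9. Of glutamine and glutamate enzymes, 1 of 7 rose and 3 fell in visceral fat and 1 of 7 fell in kidney, Aldh18a1 of proline synthesis falling in both, by 0.69 and 0.37. Of the thyroid hormone list, 1 of 4 fell in kidney and in liver, the deiodinase Dio1, which fell by 0.93 ± 0.11 and fell by 0.78 ± 0.16. In muscle 1 of 5 rose, the lipogenic Thrsp, which rose by 1.26 ± 0.32.

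Core clock genes differed widely between the groups in the tissues where carriers changed. Of 15 tested in visceral fat 9 rose and 4 fell, of 14 in kidney 9 rose and 3 fell, of 15 in liver 7 rose and 4 fell, of 15 in muscle 7 rose and 3 fell, and of 11 in spleen 4 rose and 0 fell. The medians were 1.10, 0.50, 0.60, 0.33 and 0.15. Per2, a repressor of the clock, rose by 1.63 ± 0.15 in kidney, and Arntl, its activator BMAL1, fell by 1.37 ± 0.087. In brain and subcutaneous fat 0 of 15 passed in limma. The labels give no collection hour, so a difference in the hour and an effect of swimming cannot be told apart for these genes, and its part in the carrier differences was not tested.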

How the data were processed

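The authors deposited intensity values on a linear scale for 54 arrays, 1 column each. PLIER and limma are named in the submitters' processing notes, with versions and genome build not given in the sources used here. Symbols came from GEO's platform annotation: 21086 probe sets had 1 symbol, 1867 several and 2964 none, and only the first were used. For swim against control, log2(signal + 16) was quantile normalized per tissue. Probe sets whose mean lay in the lowest 40% were dropped, and each gene was represented by its brightest probe set. Each tissue was fitted with limma 3.58.1 in R 4.3.3 (lmFit, eBayes; two-sided, Benjamini-Hochberg over all genes). Levels at rest used quantile normalization over all 54 arrays, so they differ slightly from the levels of the tissue fits. Differences between tissues were an F test over 6 contrasts, with array weights by tissue. This test assumes 1 ratio of spreads between tissues for all genes, and on simulated data without that ratio it called too many, so a version with separate spreads is given beside it.

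The members were set by the rule on symbols, and they and the gene lists were chosen with earlier results of these data known. Named were Slc7a12 and Slc16a1 in every tissue, up to 8 called carriers of smallest p per tissue (3 where none passed), with every array for up to 4, every carrier enriched at rest, 8 of the F test, up to 4 called genes per list and tissue, and all sex-linked and sex-biased genes in kidney. The tests were run on simulated data first. Figures used matplotlib 3.10.9. The alternatives were other scalings, offsets, filters, limma settings and arrays left out.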

Additional observations from a re-analysis of the deposited data

Results flagged for a closer look

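Of 78 groups of 4 arrays behind the named values, 4 had an array far from the other 3, and chance gives about 1 in 20. Swim spleen 31 stood at 6.79 for Slc16a5, where the other 3 swim spleens lay between 6.41 and 6.46. The same array stood at 7.32 for Slc36a2, against 6.90 to 6.93 on the other swim spleens. Without it Slc16a5 still passed in spleen and so did Slc36a2. Control brain 33 stood at 7.84 for Slc7a6, below 7.96 to 7.99 on the other control brains. Swim brain 38 stood at 7.68 for Slc38a6, below 7.86 to 7.87 on the other swim brains.

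The 8 carriers of smallest p in the test between tissues are given here. The F test gave adjusted p = 6.01e-06 for Slc16a6, which fell in kidney and muscle, and 7.47e-06 for Slc16a3, which fell in muscle and spleen. It gave 4.57e-05 for Slc16a7, higher in liver and kidney, 7.00e-05 for Slc7a12, which was above the low signals in kidney alone, so that its F test sets kidney against tissues with no measurable level, and 8.43e-05 for Slc7a6, higher in spleen and muscle. It gave 0.000113 for Slc36a1, higher in visceral fat, 0.000116 for Slc7a8, lower in liver, spleen and visceral fat, and 0.000191 for Slc1a5, higher in muscle. With a spread of its own in each tissue, the adjusted p of these carriers lay between 3.04e-06 for Slc16a6 and 0.0176 for Slc1a5.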

How the results depend on the processing

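Counts of called carriers moved by over 1.5 times as follows, and the cause was not tested. With values as deposited, 4 passed in visceral fat (5.24% of all genes), 4 in liver (4.47%), 3 in kidney (0.362%) and 19 in spleen (45.1%). The test between tissues then gave 12 (9.43%). With arrays centred on their medians, 13 passed in visceral fat, 4 higher and 9 lower (45.4% of all genes), and 4 in liver (3.19%). The single fit of all 54 arrays gave 26 in subcutaneous fat (49.9% of all genes), 3 in kidney (2.22%), 2 in spleen (3.47%) and 4 in muscle (3.56%). Array weights gave 16 in subcutaneous fat (49.5% of all genes), 4 in liver (4.7%), 7 in brain (26.9%) and 16 in muscle (24.3%). In liver, offset 64 gave 6 (5.72% of all genes), leaving out the lowest 60% gave 5 (7.73%), and trended robust limma gave 6 (6.31%). Leaving out the lowest 60% gave 5 in spleen (18.9% of all genes), and no filter gave 4 in muscle (3.19%). In brain, offset 1 gave 1 (0.68% of all genes) and keeping every probe set gave 1 (0.84%), Slc7a6 each time. Without control array 17 and swim arrays 22 and 23, chosen after seeing the data, 17 passed in subcutaneous fat (41.9% of all genes). Leaving out each array in turn gave 7 to 10 in visceral fat (14.8% to 20.4% of all genes), 0 to 11 in subcutaneous fat (0% to 34.5%) and 1 to 4 in liver (1.13% to 4.71%). It gave 11 to 12 in kidney (18.3% to 21.3%), 1 to 13 in spleen (5.04% to 19.2%), 0 to 0 in brain (0.129% to 0.593%) and 1 to 10 in muscle (0.608% to 9.88%). At rest it gave 20 to 21 enriched carriers, and a threshold of 2 log2 units gave 13. Slc7a6 in spleen was reversed with values as deposited, at -0.040. Of 34 named calls, 4 passed under every alternative: Slc16a1 in visceral fat and kidney, Slc16a7 in liver and Slc16a3 in muscle. Slc16a6 in kidney was not tested when the lowest 60% were left out, and passed under the others. No paired analysis was possible because the groups share no replicate numbers.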

Other observations

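Carriers of 1 organ appeared on single arrays of another. Spleen control array 26 held Slc38a3 at 7.76 and Slc38a4 at 7.39, both highest in liver, while the other 3 control spleens lay between 4.59 and 5.73 for Slc38a3 and between 4.45 and 5.25 for Slc38a4. Alb stood at 12.46 on that array and at 4.90, 10.01 and 4.56 on the others.

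Slc7a11, the xCT exchanger, had 4.87, 6.59, 8.08 and 4.68 in swim subcutaneous fat, against 5.03, 8.90, 9.50 and 9.18 in control subcutaneous fat. Like Slc38a1, it was highest on control arrays 18, 19 and 20, between them and the rest on swim arrays 22 and 23, and low on the other 3. In spleen, where lymphocyte markers are high throughout, Slc7a11 had 9.51, 9.53, 9.61 and 9.42 in swim spleens, against 9.43, 9.35, 9.71 and 9.48 in control spleens.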
